A study of Bos taurus with 18 samples.

Results

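Interferon-stimulated genes are the genes that cells switch on when interferon reaches them. A list of 35 of them was followed in the endometrium of non-pregnant cows, and its members were found by gene symbol in a table of 38001 genes. In all, 32 of the 35 had a row under their symbol, and all 32 passed the filter on low counts, among 19638 genes that did. BST2, SAMD9 and GBP4 are not analysed here.

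Type I interferons bind a receptor made of IFNAR1 and IFNAR2, and the signal passes to a complex with STAT2 and IRF9 that binds the promoters of the responding genes. Their products block virus entry and replication, sense foreign RNA or DNA, or tag proteins with the ubiquitin-like ISG15. In ruminants the same genes are known for their strong response in the uterus to interferon tau, the signal that the elongating conceptus secretes to prolong the life of the corpus luteum. The present samples are from the early luteal phase, before a conceptus elongates, so they give the level of these genes without that signal.

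Endometrial cells were brushed from the uterine horn beside the corpus luteum of 6 Holstein cows, synchronized by Ovsynch, with the day of estrus as day 0. Each cow gave a sample on day 4 and on day 7 of a cycle without added hormone, and on day 7 of a second synchronized cycle after an injection on day 4. Cows A, B and C received 100 mg of 17α-hydroxyprogesterone caproate (17-OHPC), a synthetic progestin ester, with 10 mg of progesterone (P4) as a depot, and cows D, E and F received 100 mg of P4. The 18 libraries thus form 6 groups of 3 cows, and every treated cycle came after the untreated one, so that treatment and cycle order cannot be told apart. The labels state neither age nor parity. The compounds were given at different doses, so the arms are set side by side as given.

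Total counts ran from 29347255 to 40733544 per library, and the 32 genes took 32127 to 81481 of them. Levels are given in CPM, the count divided by the library's total count on a common scale, which is not adjusted for gene length, so levels are compared between libraries and not between genes. Of the markers of the tissue, EPCAM, an epithelial adhesion protein, stood at 257 to 675 CPM and the estrogen receptor ESR1 at 186 to 782 CPM in all libraries. The uterine markers PGR, MSX1, EMX2 and PAX8 stayed at or above 26.8 CPM. The uterine markers HOXA10, HOXA11 and FOXA2 fell to 0.861, 1.16 and 1.53 CPM in their lowest libraries. Of the conceptus markers, the interferon tau gene IFNT reached at most 0.409 CPM, TKDP2 and CSH2 had no count, and PAG2 and CDX2 stayed at or under 0.0682 CPM, while PAG1 lay between 1.23 and 6.96 CPM. SSLP1 and ELF5 of that list were present, at up to 243 and 119 CPM. Markers of red blood cells summed to between 378 and 4308 CPM in the libraries of cow C and to at most 5.76 CPM in the others. Stromal markers summed to between 3208 and 6824 CPM in cow C and to between 108 and 3041 CPM in the others. The epithelial list summed to between 2968 and 6807 CPM over all libraries. In cow C's day 4 library the stromal sum was above the epithelial one (5352 CPM). Each library is a mixture of cells, so fewer cells of a type and less RNA per cell cannot be told apart.

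By the median, the 32 genes varied between cows about as much as all genes tested, with a wide range among the 32. The biological coefficient of variation, the spread between cows of a group beyond counting error, had a median of 37.6% over the 32 genes and of 38.0% over all genes tested. It was narrowest for DTX3L (18.7%), TRIM25 (19.5%), ADAR (19.5%) and IFIT5 (19.9%). It was widest for RSAD2 (74.4%), ISG15 (75.8%), OAS2 (76.2%) and IFIT1 (77.5%). The lowest and the highest of the 18 libraries differed 1.84-fold for STAT2 and 40.7-fold for IFI44, an interferon-induced cytoplasmic protein. The lowest library of IFI44, the treated one of cow F, held 14 counts of it.

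The untreated day 7 library of cow A stood apart from all others. In TMM-scaled log2 CPM, where a factor per library adjusts its total count, it held the highest level of 16 of the 32 genes. On that scale 30 of the 32 lay above their own mean over the libraries. In plain CPM the 32 genes summed to 2270 there against 1067 to 1804 in the other 17 libraries. At the low end, again in TMM-scaled log2 CPM, the treated day 7 library of cow A held the lowest level of 10 genes. That of cow F held the lowest of 7. Where leaving out cow A turned the sign of a median log2 fold change of the 32 genes given here, both values are given. Medians of marker lists, pathway lists and role groups were not computed again without that cow.

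**Figure D1:**
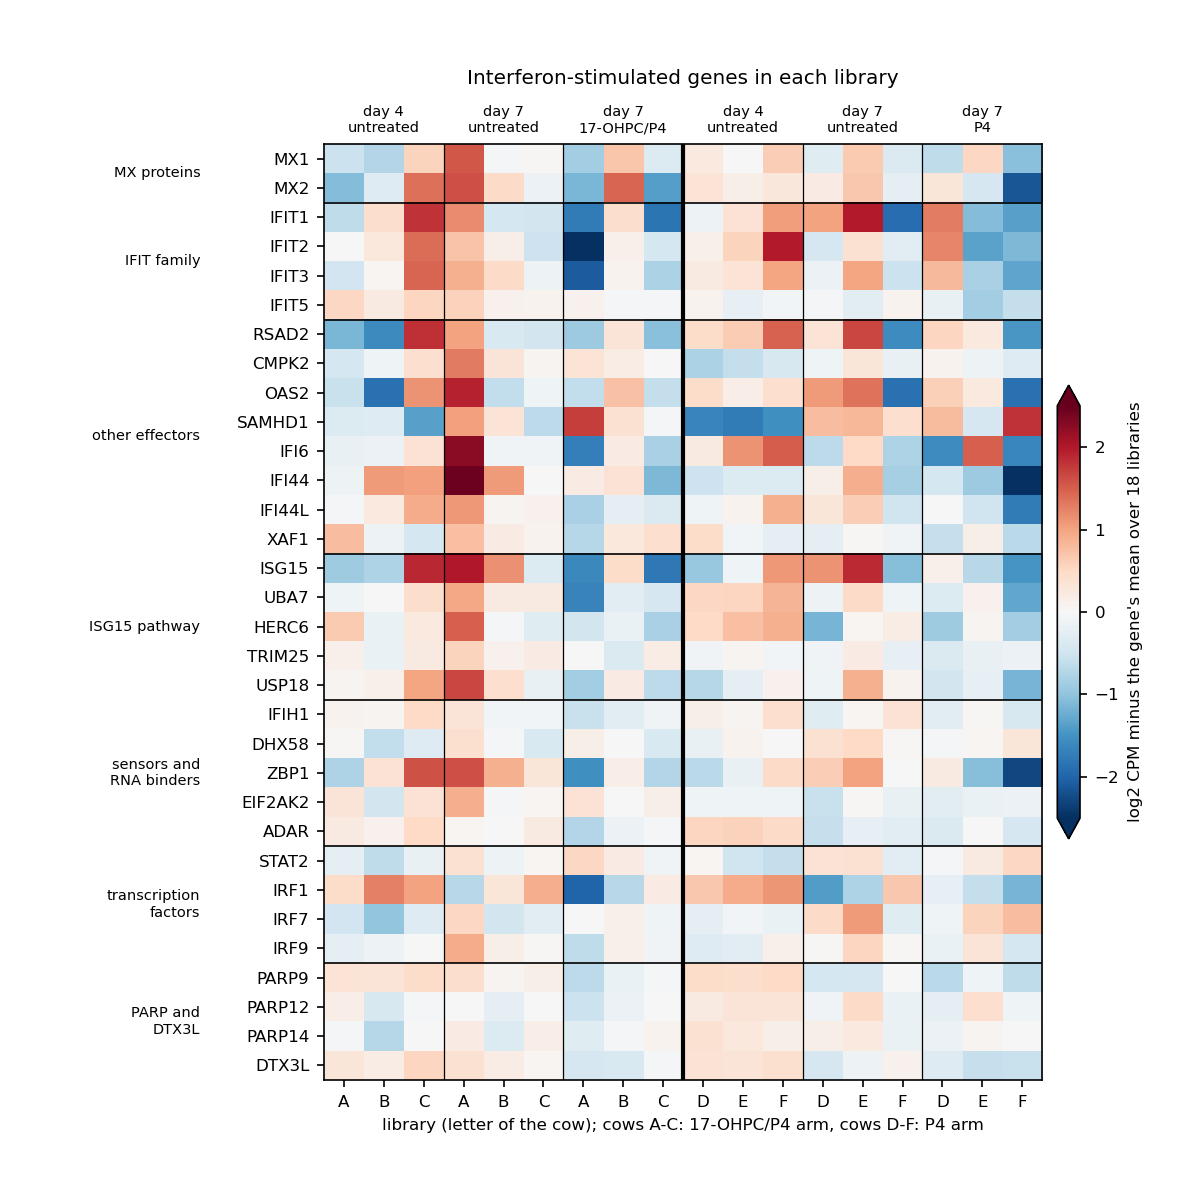
Each row is 1 of the 32 interferon-stimulated genes, grouped by role, and each column 1 of the 18 libraries, ordered by arm and condition. Colour is TMM-scaled log2 CPM minus the gene's mean over the 18 libraries (red higher, blue lower, saturating at the ends of the bar). The untreated day 7 library of cow A is red for 30 of 32 genes, and the treated day 7 libraries of cows A and F are mostly blue.

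The first question was whether these genes change from day 4 to day 7 when no hormone is given, as luteal progesterone rises. Most did not pass the test, and the 32 did not move together: 18 had a positive and 14 a negative log2 fold change, with a median of 0.03 against -0.05 over all genes tested. The sign of that median turned without cow A's untreated day 7 library (-0.10, 21 negative), without cow B's day 4 library (-0.05, 18 negative), and with all libraries of cow A (-0.15, 19 negative) or cow E (-0.03, 18 negative) left out. A gene was called where edgeR's quasi-likelihood F test gave an adjusted p under 0.05. In both arms together 1 member was called higher, where 6.27% of all genes were, and 1 was called lower, where 4.28% were. Both shares of the members lie near or below the background.

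SAMHD1, an enzyme that breaks down the nucleotides viruses need for reverse transcription, was the gene that rose. Its level on day 4 was 121, 137 and 64.1 CPM in cows A, B and C and 54.1, 51.6 and 62.4 CPM in cows D, E and F. On untreated day 7 it was 309.9, 199.6 and 102 CPM in cows A to C and 238, 258 and 199 CPM in cows D to F. Every cow was higher on day 7, and only cow C's day 7 value fell inside the range of the day 4 values. The log2 fold change was 1.65 ± 0.39 (SE, 6 of 6 cows, edgeR adjusted p = 0.0176). Without cow A's untreated day 7 library it was 1.42 with an adjusted p of 0.0545.

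ADAR, which edits adenosine to inosine in double-stranded RNA and so keeps a cell's own RNA from its sensors, was the gene that fell. It stood at 113, 114 and 145 CPM on day 4 and at 99.1, 99.3 and 117 CPM on untreated day 7 in cows A to C. In cows D to F it went from 153, 161 and 157 CPM to 58.5, 79.2 and 76.5 CPM. Every cow was lower on day 7, and the days did not overlap in the P4 arm. The log2 fold change over both arms was -0.53 ± 0.13 (0 of 6 cows higher, edgeR adjusted p = 0.0206). The call was lost without any 1 of 5 libraries, with an adjusted p of 0.0568, 0.070 and 0.090 without the untreated day 7 libraries of cows A, B and D, and of 0.0531 and 0.0515 without the day 4 libraries of cows C and E. It also missed the threshold with no filter on low counts (0.0503).

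Among the transcription factors, STAT2 was higher in 6 of 6 cows and IRF1 lower in 6 of 6, but neither passed the test. STAT2, a part of the interferon-activated complex, stood at 52.8, 43.9 and 58.0 CPM on day 4 and at 80.6, 58.7 and 66.7 CPM on untreated day 7 in cows A to C, and at 71.2, 49.5 and 48.0 CPM and then 72.5, 76.6 and 50.3 CPM in cows D to F. The days did not overlap in the first arm, and the log2 fold change was 0.49 ± 0.17 (edgeR adjusted p = 0.0840). IRF1, a factor also induced by interferon-gamma, stood at 92.1, 177 and 144 CPM on day 4 and at 41.0, 84.4 and 132 CPM on untreated day 7 in cows A to C. In cows D to F it stood at 118, 143 and 168 CPM and then at 23.1, 37.1 and 104 CPM. Its log2 fold change was -0.88 ± 0.40 (edgeR adjusted p = 0.169). With SAMHD1 and ADAR these were the genes that moved 1 way in every cow, 2 higher where 10.5% of all genes were higher in every cow, and 2 lower where 9.11% were.

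The classical effectors did not share a direction. MX1 and MX2, dynamin-like antiviral proteins, had positive values of 0.30 ± 0.39 and 0.24 ± 0.56, each higher in 3 of 6 cows. Of the IFIT family, which binds foreign RNA, IFIT1 stood at 0.00 ± 0.68 and IFIT2 at -0.84 ± 0.56. ISG15 had 0.69 ± 0.66, RSAD2 (viperin) -0.28 ± 0.64 and the 2'-5'-oligoadenylate synthetase OAS2 0.58 ± 0.66. None of these passed the test, and the standard error was above the value for all of them but IFIT2 and ISG15.

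Within the 17-OHPC/P4 arm 0 of the 32 genes were called between day 4 and day 7, where 0.0407% of all genes were, and DESeq2 and limma voom also called 0. At an unadjusted p under 0.05 edgeR gave 1 gene, the mitochondrial nucleotide kinase CMPK2 (0.68 ± 0.30), where 9.63% of all genes passed. The median of the 32 genes was 0.28 with 21 positive. With all libraries of cow A left out it was -0.24 with 22 negative, and without that cow's untreated day 7 library alone -0.12, so the sign of the median rested on 1 library.

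Within the P4 arm 3 members were called. SAMHD1 rose by 2.32 ± 0.57 (3 of 3 cows, edgeR adjusted p = 0.0243), where 4.64% of all genes were called higher. ADAR was at -0.87 ± 0.19 (adjusted p = 0.0147) and PARP9, a partner of the ubiquitin ligase DTX3L in interferon signalling, at -0.74 ± 0.19 (adjusted p = 0.0308), both called lower, where 4.00% of all genes were. PARP9 went from 65.0, 65.4 and 71.3 CPM in cows D, E and F on day 4 to 28.4, 30.1 and 41.9 CPM on day 7, with no overlap. In this arm 10 of the 32 genes were lower in every cow, where 27.6% of all genes were, and 4 were higher, where 23.6% were. The median of the 32 genes was -0.13. It was 0.03 without cow F's day 7 library, 0.05 with all libraries of cow D left out and 0.16 with those of cow F left out.

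These P4 arm calls rested on few libraries. ADAR lost its call with cow D's day 7 library (adjusted p = 0.0987) or cow E's day 4 library (0.0634) left out. The SAMHD1 call was lost without 5 of the 6 libraries, with the day 4 libraries of cows D, E and F left out (0.0686, 0.0990 and 0.0825) or the day 7 libraries of cows D and E (0.0785 and 0.060). The PARP9 call was lost without the same 5 libraries (0.0672, 0.0911 and 0.0956, and 0.147 and 0.101) and with no filter on low counts (0.0649). Without cow F's day 7 library 5 members were called, where 2347 of 19638 genes were.

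The difference between the arms in this change was tested after the arms were seen to differ. It was called for 0 of the 32 genes and for 0% of all genes by edgeR, and 2 members, ADAR (0.68 ± 0.26) and PARP9 (0.59 ± 0.27), passed at an unadjusted p, where 7.71% of all genes did. The change in the P4 arm is thus not shown to differ from that in the other arm.

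Markers of T and NK cells moved with the same comparison. Of the 17 rows of the T and NK cell list, 0 had a positive log2 fold change from day 4 to day 7, with a median of -0.90. CD3E, of the T cell receptor complex, and IL2RB, of the interleukin-2 receptor, were called lower. Over all genes tested 46.1% were positive and 4.28% were called lower. Of the 7 rows of the B cell and plasma cell list 2 were positive, with a median of -0.52, and 0 were called. The summed T and NK cell list lay at 95.1 to 406 CPM on day 4 and at 66.2 to 148 CPM on untreated day 7. None of its markers was at 0 in all libraries. Neutrophil markers went the other way in 5 of 6 cows, from 8.70 to 193 CPM on day 4 to 65.1 to 447 CPM on day 7. Their part in the results was not tested.

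**Figure D2:**
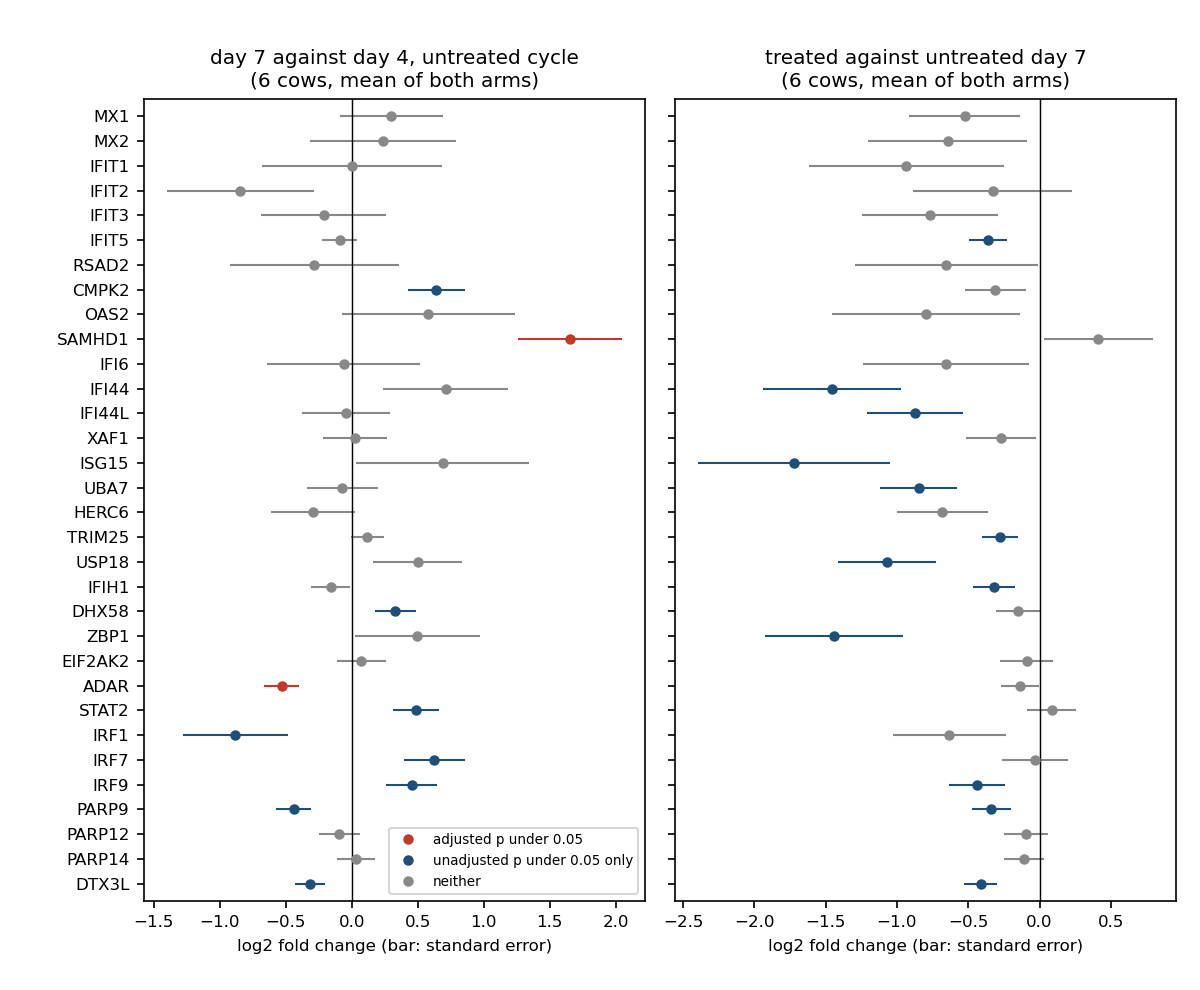
Log2 fold change (points) with its standard error (bars) of the 32 genes, for day 7 against day 4 of the untreated cycle (left) and treated against untreated day 7 (right), over 6 cows and both arms. On the left SAMHD1 (1.65) and ADAR (-0.53) passed the adjusted threshold. On the right 30 of 32 values lie below 0 and none passed it.

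The second question was how the progestin injections changed these genes on day 7. The members lay lower in the treated cycle almost throughout, yet none passed the test. Over both arms 30 of the 32 log2 fold changes were negative, the exceptions being SAMHD1 (0.41 ± 0.38) and STAT2 (0.08 ± 0.17). The median was -0.43, against -0.01 over all genes tested. By edgeR 0 members were called, and so were 0% of all genes. DESeq2 and limma voom called 0 members as well. At an unadjusted p under 0.05, 12 of the 32 were lower by edgeR, where 2.64% of all genes were, 13 by DESeq2 and 10 by limma voom. In 8 of the 32 the treated value was lower in every cow, where 2.43% of all genes were. The comparison shares its untreated day 7 libraries with the one between day 7 and day 4, so a high library there enters both with opposite sign.

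Among the role groups, which were chosen with earlier results of these data known, the ISG15 pathway had the lowest median, -0.85. Of its members 5 of 5 were negative, where 30 of all 32 were. ISG15 itself is a ubiquitin-like protein that is joined to other proteins or released as a signal. On untreated day 7 it stood at 29.3, 16.7 and 5.95 CPM in cows A, B and C and at 2.10, 10.2 and 2.19 CPM on treated day 7. In cows D, E and F it was 14.4, 25.1 and 3.36 CPM without and 7.60, 4.19 and 2.28 CPM with treatment. Every cow was lower in the treated cycle, although the groups overlapped in both arms. The log2 fold change was -1.72 ± 0.67 (0 of 6 cows higher, edgeR adjusted p = 0.895).

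The enzymes that attach and remove ISG15 had the same sign. UBA7, which activates ISG15 for conjugation, was at 35.4, 22.0 and 22.3 CPM on untreated day 7 and at 5.07, 15.6 and 14.5 CPM on treated day 7 in cows A to C. In cows D to F it was at 15.2, 24.1 and 16.3 CPM and at 13.6, 18.3 and 6.53 CPM. Treated and untreated values did not overlap in cows A to C and did in cows D to F. Its log2 fold change was -0.85 ± 0.27 (0 of 6 cows higher). USP18, the protease that removes ISG15 and damps the receptor, was at 23.5, 10.3 and 6.79 CPM against 3.62, 8.72 and 4.98 CPM in cows A to C, and at 6.23, 13.1 and 7.69 CPM against 5.11, 5.99 and 2.94 CPM in cows D to F. In the P4 arm its treated values all lay below the untreated ones, and over both arms the log2 fold change was -1.07 ± 0.34. TRIM25, a ubiquitin ligase of RNA sensing, had -0.28 ± 0.12 and the ISG15 ligase HERC6 -0.68 ± 0.32.

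Among the effectors, IFI44 and its neighbour IFI44L, which shares much of its sequence, were lower in 6 of 6 cows. IFI44 was at 15.5, 6.12 and 2.94 CPM on untreated and 2.89, 3.69 and 1.33 CPM on treated day 7 in cows A to C, and at 2.80, 5.0 and 1.51 CPM against 1.96, 1.37 and 0.381 CPM in cows D to F. Its log2 fold change was -1.46 ± 0.48, and that of IFI44L was -0.87 ± 0.34. Cow F's treated library held the lowest IFI44 of all 18.

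The other effectors spread more widely. IFIT3 was at 11, 8.56 and 5.70 CPM on untreated and at 1.22, 6.49 and 3.66 CPM on treated day 7 in cows A to C, and at 4.88, 11.2 and 3.98 CPM against 10.0, 3.17 and 2.09 CPM in cows D to F, higher in cow D alone (-0.77 ± 0.48). IFIT2 in cow A went from 6.19 to 0.453 CPM, the lowest of all 18 libraries (both arms -0.33 ± 0.56). CMPK2, the partner of RSAD2, had -0.31 ± 0.21 and was higher in 1 of 6 cows. XAF1, which promotes cell death, had -0.27 ± 0.25 and was higher in 3 of 6.

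The best-known markers of the interferon response were less regular. MX1 was at 239, 80.6 and 86.1 CPM on untreated and at 39.6, 135 and 67.7 CPM on treated day 7 in cows A to C, and at 59.9, 121 and 61.0 CPM against 49.6, 108 and 35.1 CPM in cows D to F. Only cow B was higher, and the log2 fold change was -0.52 ± 0.39. MX2 was at 63.6, 30.0 and 19.7 CPM against 8.41, 58.8 and 8.53 CPM in cows A to C, and at 21.8, 31.4 and 17.2 CPM against 24.5, 14.5 and 4.19 CPM in cows D to F (-0.64 ± 0.56).

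IFIT1 was at 26.6, 9.02 and 9.0 CPM on untreated and 3.11, 16.5 and 3.51 CPM on treated day 7 in cows A to C, and at 21.7, 44.6 and 3.01 CPM against 27.5, 5.21 and 4.08 CPM in cows D to F. It was higher in 3 cows and lower in 3, with a log2 fold change of -0.93 ± 0.68. RSAD2, which makes a chain-terminating nucleotide, was at 11.5, 4.51 and 4.31 CPM against 2.69, 7.31 and 2.91 CPM in cows A to C, and at 6.56, 17.2 and 1.83 CPM against 7.94, 6.32 and 1.82 CPM in cows D to F. It was higher in cows B and D, lower in cows A, C and E and level in cow F (-0.65 ± 0.64). OAS2, which makes the signal for RNase L, was at 8.30, 1.43 and 2.08 CPM against 1.25, 3.74 and 1.5 CPM in cows A to C, and at 4.18, 5.33 and 0.538 CPM against 3.15, 2.42 and 0.489 CPM in cows D to F, higher in cow B alone (-0.80 ± 0.66). IFIT5 varied least in its family and was lower in 6 of 6 cows, by -0.36 ± 0.13. It was at 64.4, 48.0 and 47.9 CPM against 41.4, 43.2 and 44.3 CPM in cows A to C, and at 37.7, 33.4 and 44.5 CPM against 36.0, 22.0 and 25.3 CPM in cows D to F.

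Of the sensors, ZBP1, which binds nucleic acid in the left-handed Z form, was at 18.6, 11.7 and 7.88 CPM on untreated and at 1.84, 7.00 and 3.89 CPM on treated day 7 in cows A to C. In cows D to F it was at 8.45, 11.7 and 5.92 CPM against 6.77, 2.71 and 1.09 CPM. Every cow was lower, the values did not overlap in the first arm, and the log2 fold change was -1.44 ± 0.48. The RNA helicases IFIH1 (MDA5) and DHX58 (LGP2) had -0.32 ± 0.15 and -0.15 ± 0.15. The double-stranded RNA kinase EIF2AK2 (PKR) had -0.09 ± 0.19, and ADAR -0.14 ± 0.13.

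The transcription factors had a median of -0.24, against -0.15 for the sensors and RNA binders. IRF9, the DNA-binding part of the STAT complex, was lower in 6 of 6 cows (-0.44 ± 0.20), IRF7 had -0.03 ± 0.23 and IRF1 -0.63 ± 0.40. Of the ADP-ribosyltransferase family, PARP9 had -0.34 ± 0.14, PARP12 -0.10 ± 0.15 and PARP14 -0.11 ± 0.14. DTX3L had -0.41 ± 0.12, the smallest p of the 32 (0.00294, edgeR, adjusted p = 0.895). PARP9 and DTX3L overlap in the genome, and the strand setting of the counting is not given in the sources used here, so reads in the overlap may have been shared. DTX3L also lies next to PARP14, MX2 next to MX1, RSAD2 next to CMPK2, IFIT2 next to IFIT3 and IFI44 next to IFI44L.

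**Figure D3:**
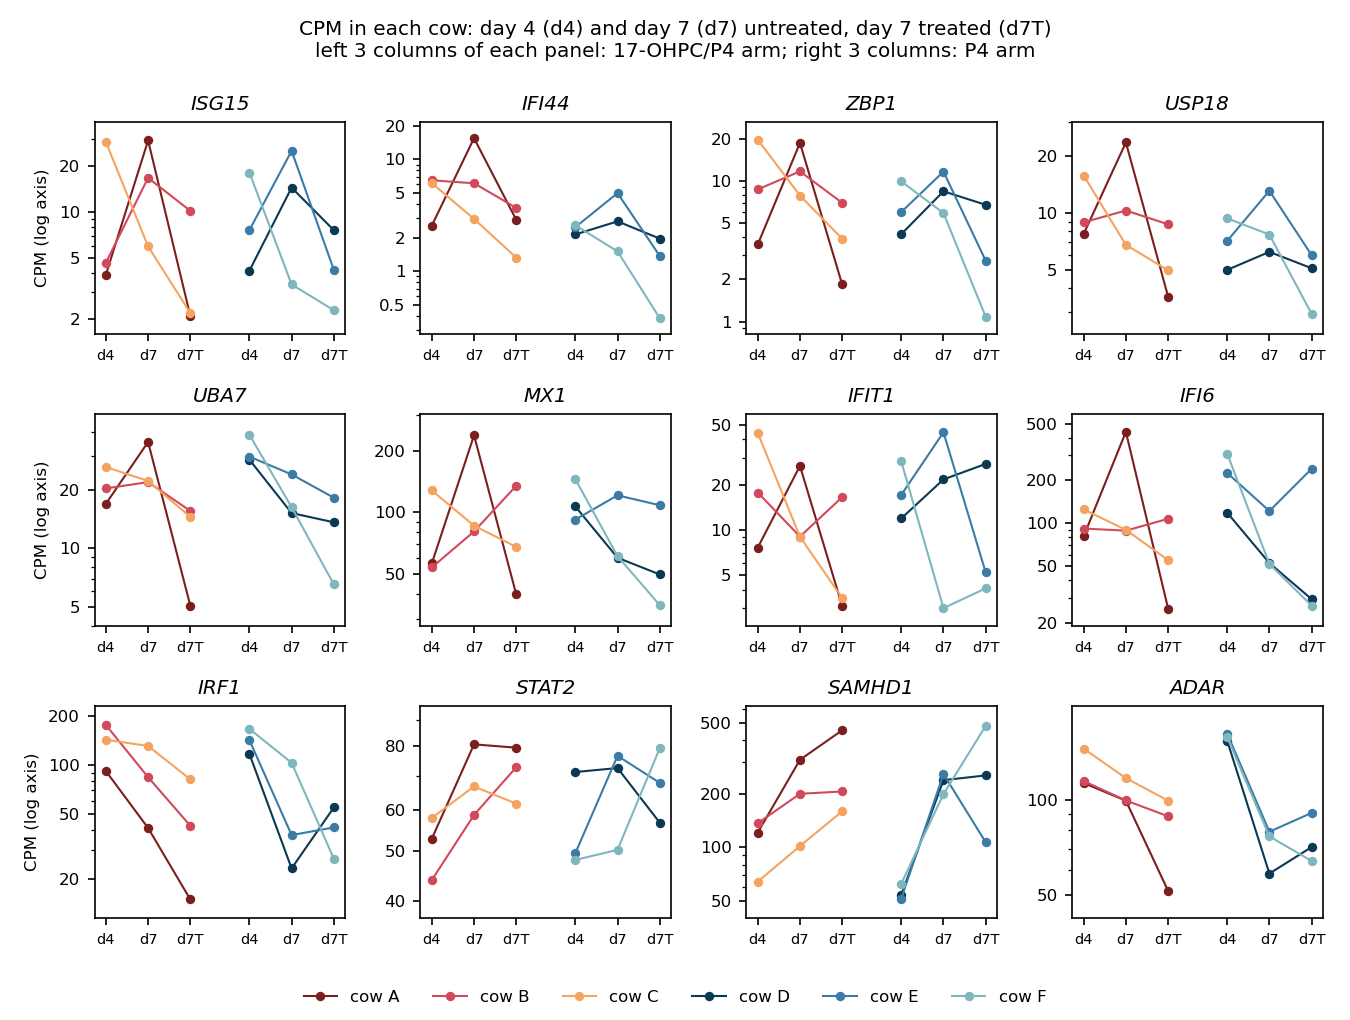
CPM on a log axis for 12 of the genes, with 1 line per cow through day 4 (d4), untreated day 7 (d7) and treated day 7 (d7T), cows A to C at left and D to F at right in each panel. ISG15, IFI44, ZBP1, USP18 and UBA7 go down from d7 to d7T in all 6 cows, MX1 in 5 and IFIT1 in 3, while SAMHD1 goes up from d4 to d7 in all 6.

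The lower level after treatment was unevenly spread over the cows. In cow A 30 of the 32 genes were lower on treated day 7, with a median change in log2 CPM of -1.53. In cows B and C 18 and 27 were lower, with medians of -0.07 and -0.23. In cows D, E and F 19, 26 and 22 were lower, with medians of -0.21, -0.43 and -0.62. Among all genes tested, the share lower ran from 47.6% to 52.7% per cow, and the median from -0.04 to 0.02. All 6 medians of the members thus lay below that of all genes in the same cow, and that of cow A lay farthest.

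Before treatment the same cows had not moved alike. From day 4 to untreated day 7 only 4 genes were lower in cow A, with a median change of 1.03, and 8 and 11 were lower in cows B and E (0.29 and 0.46). In cows C, D and F 25, 19 and 26 were lower (-0.45, -0.14 and -0.48).

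**Figure D4:**
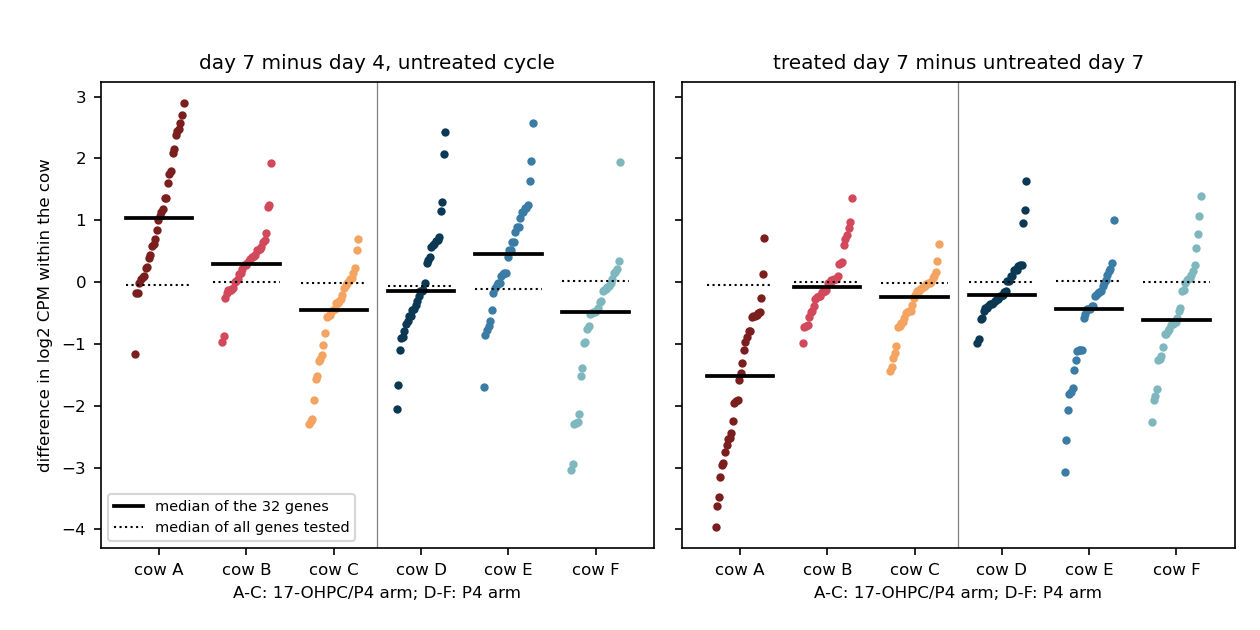
Change in log2 CPM within each cow for the 32 genes (points, sorted), from day 4 to untreated day 7 (left) and from untreated to treated day 7 (right), with the median of the 32 genes (solid bar) and of all genes tested (dotted bar). On the right all 6 solid bars lie below the dotted ones, from -0.07 in cow B to -1.53 in cow A.

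With all libraries of cow A left out, the median over both arms was -0.18, 26 of 32 genes were negative and 4 were lower at an unadjusted p: IFI44 (-1.09), ZBP1 (-1.08), UBA7 (-0.54) and DTX3L (-0.33). ISG15 was at -1.24 and MX1 at -0.01 without that cow, and IFI6 turned from -0.66 to 0.14. Without cow A's untreated day 7 library alone the median was -0.26. The count of genes lower at an unadjusted p fell from 12 to 5 without that library, to 7 without cow A's treated library or cow E's untreated day 7 library, and to 6 without cow F's treated library. Without the 3 libraries of cow C, which held the red blood cell markers, the median was -0.53 and the count 12.

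Within the 17-OHPC/P4 arm 29 of the 32 genes were negative, with a median of -0.58, and 0 were called (0% of all genes). At an unadjusted p 8 were lower, where 0.968% of all genes were: IFI44, UBA7, HERC6, USP18, ZBP1, IRF9, PARP9 and DTX3L. In 17 the treated value was lower in every cow, where 21.6% of all genes were, and SAMHD1 was higher in 3 of 3. With cow A left out the median was -0.11, 18 genes were negative and 0 were lower at an unadjusted p. The count of 8 became 1 without cow A's untreated day 7 library, 2 without its treated library and 13 without cow B's treated library, and the median without the first of these was -0.22. DESeq2 gave 10 genes and limma voom 4 at an unadjusted p, and both called 0.

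Within the P4 arm 26 of the 32 genes were negative, with a median of -0.29, and 0 were called (0% of all genes). At an unadjusted p 1 was lower, IFIT5 at -0.45 ± 0.19, where 1.43% of all genes were. DESeq2 gave 4 and limma voom 2, and both called 0. In 10 genes the treated value was lower in every cow, where 9.95% of all genes were. Without cow E's untreated day 7 library the median was -0.08 and 19 were negative. The unadjusted count was 0 without the treated library of cow E or F, 2 without the untreated day 7 library of cow F and 5 without the treated library of cow D. IFI6, a small mitochondrial and endoplasmic reticulum protein, was the highest value at 0.41 ± 0.82: it was at 52.6, 122 and 51.8 CPM on untreated and at 29.4, 241 and 26.4 CPM on treated day 7 in cows D, E and F, higher in cow E alone.

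Markers of leukocytes were lower after treatment as well. A list of 7 pan-leukocyte genes, PTPRC (CD45) among them, summed to 283, 361 and 560 CPM on untreated day 7 in cows A to C and to 114, 502 and 291 CPM on treated day 7. In cows D to F it summed to 447, 637 and 180 CPM and to 272, 221 and 172 CPM. All cows but B were lower, and 7 of 7 log2 fold changes were negative, with a median of -0.69.

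Of the macrophage and dendritic cell list 10 of 11 were negative (median -0.87), with sums of 89.6 to 328 CPM on untreated and 21.9 to 112 CPM on treated day 7. Of the neutrophil list 6 of 8 were negative (median -1.35), the sum was lower in 6 of 6 cows, with 65.1 to 447 CPM on untreated and 1.64 to 134 CPM on treated day 7. The stromal list was negative in 9 of 9 (median -0.71), and its sum was lower in 4 of 6 cows. The T and NK cell list was positive in 12 of 17 (median 0.17), and the epithelial list negative in 7 of 10 (median -0.13). None of the markers of these lists was at 0 in all libraries, although the neutrophil genes S100A8 and S100A9 were at 0 in the treated library of cow A, and none was called. Their part in the lower interferon-stimulated genes was not tested.

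**Figure D5:**
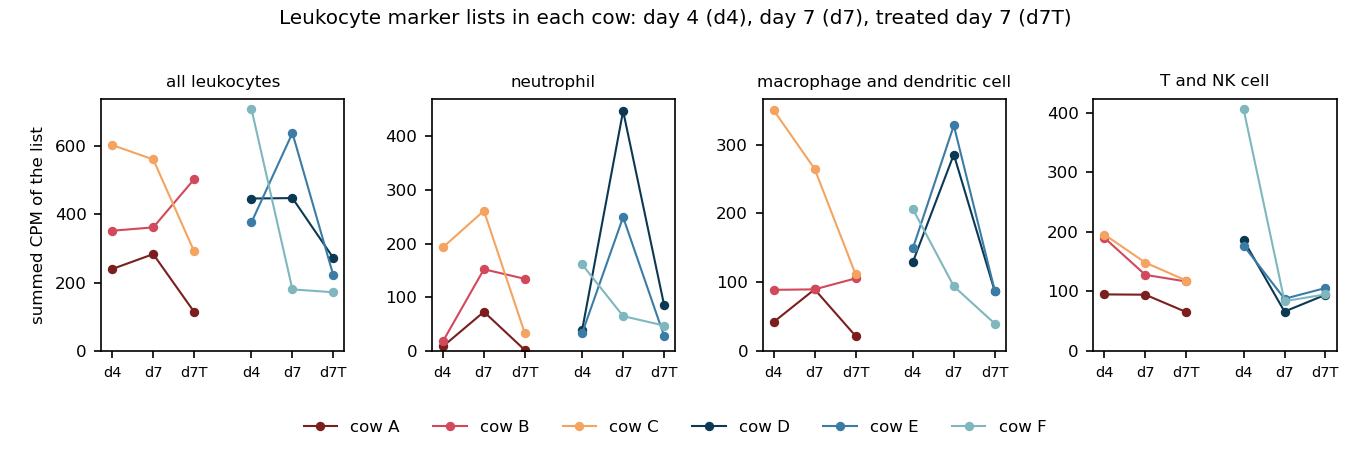
Summed CPM of the markers of all leukocytes, neutrophils, macrophages and dendritic cells, and T and NK cells, with 1 line per cow through day 4 (d4), untreated day 7 (d7) and treated day 7 (d7T), cows A to C at left and D to F at right. From d7 to d7T the neutrophil sum is lower in all 6 cows and the sums of all leukocytes and of macrophages and dendritic cells in all but cow B.

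The third question was whether the formulations differed. On treated day 7, 0 of the 32 genes were called between 17-OHPC/P4 and P4, where 0.0102% of all genes were, and DESeq2 and limma voom called 0. At an unadjusted p only IFIT5 differed, higher with 17-OHPC/P4 by 0.54 ± 0.19 (edgeR adjusted p = 0.391), where 9.12% of all genes passed. It was higher in the same arm on untreated day 4 too, by 0.49 ± 0.19. The 32 values were split into 16 positive and 16 negative, and with cow A left out 10 were negative.

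The intervals leave room for differences of several fold. For ISG15 the difference was -0.07 ± 0.93, with a 95% interval of -2.06 to 1.93 on the log2 scale. For MX1 it was 0.21 ± 0.55 (-0.96 to 1.38) and for IFI44, the highest value, 1.03 ± 0.68 (-0.42 to 2.49). IFI6 had the lowest value, -0.78 ± 0.83 (-2.55 to 0.98). The steadier ADAR had -0.04 ± 0.19 (-0.43 to 0.36).

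The difference between the arms in the response to treatment, each arm set against its own untreated day 7, was called for 0 members and 0% of all genes. None of the 32 passed at an unadjusted p, where 1.26% of all genes did, and DESeq2 and limma voom called 0. The lowest value was that of IFI6, -2.13 ± 1.17 (95% interval -4.64 to 0.38). For ISG15 it was -0.23 ± 1.31 (-3.03 to 2.58) and for ZBP1 -0.28 ± 0.95 (-2.30 to 1.75). The median of the 32 genes was -0.18 with 24 negative, and with cow A left out it was 0.17 with 10 negative. Without that cow IFI6 was at -0.54, ISG15 at 0.74 and ZBP1 at 0.46, so the sign of the last 2 turned. A miss at these widths does not show that the formulations act alike.

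The arms were also compared before treatment. On untreated day 4, 0 members were called where 2.76% of all genes were, and 2 passed at an unadjusted p, IFIT5 and PARP14, where 22.2% of all genes did. On untreated day 7, 0 were called where 0.00509% of all genes were, and 4 passed at an unadjusted p, CMPK2, EIF2AK2, ADAR and PARP9, where 10.6% did. DESeq2 and limma voom called 0 members on either day. The median on untreated day 7 was 0.34 toward the 17-OHPC/P4 arm, with 24 of 32 positive, and -0.07 with cow A left out. The sign of that median rested on 1 cow.

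Further genes of the pathway came from 6 lists with 121 symbols, of which 93 had a row. Of the 15 symbols of interferon genes 7 had a row, so the level of the others is not known here. Those with a row were at or near 0, and 3 of their 13 rows were tested. The 6 rows named IFNB3 had no count, and IFNG, IFNK, IFNAC, IFNT and IFNT2 stayed at or under 0.409 CPM. For day 7 against day 4 over both arms, 1 of the 3 tested rows had a positive value. This row, IFNW1 (ENSBTAG00000039675), an interferon omega gene, was called higher (2.69 ± 0.80, edgeR adjusted p = 0.0444) at 0 to 0.623 CPM. That call was lost without any 1 of 10 of the 12 libraries, all but the day 7 libraries of cows C and F, and also with limma voom (adjusted p = 0.0734), with only the compared groups (0.0598) and with no filter on low counts (0.0591). IFNE is not analysed here. The receptors were present, IFNAR1 at 42.9 to 110 CPM and IFNAR2 at 9.12 to 41.0 CPM. Their day 7 against day 4 values were -0.11 ± 0.16 and -0.15 ± 0.24, neither called.

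Several further genes differed between untreated day 7 and day 4 by edgeR over both arms. RIGI, the sensor of short double-stranded RNA that acts beside IFIH1, went from 49.0, 29.4 and 35.6 CPM to 91.7, 52.3 and 49.4 CPM in cows A to C and from 32.1, 27.2 and 30.8 CPM to 70.0, 109 and 54.0 CPM in cows D to F. All day 7 values lay above all day 4 values, and the gene rose by 1.22 ± 0.23 (adjusted p = 0.00544). The antiviral Tudor-domain protein TDRD7 rose by 0.92 ± 0.18 (adjusted p = 0.00613), the interferon-gamma receptor chain IFNGR1 by 0.85 ± 0.18 (0.0116) and the adaptor MYD88 by 0.78 ± 0.17 (0.0116). The tryptophanyl-tRNA synthetase WARS1, an interferon-gamma response gene, fell by 0.60 ± 0.13 (0.0105). These 5 moved alike in 6 of 6 cows and were called with any 1 of the 12 libraries left out.

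Other called genes were IFNW1, PML and CXCL10. PML, of nuclear bodies, fell by 0.47 ± 0.14 (adjusted p = 0.0477). This call was lost without any 1 of 9 libraries, all but the day 4 library of cow A and the day 7 libraries of cows C and F, and also with RLE size factors (0.0535), with only the compared groups (0.0578) and with no filter on low counts (0.106). The chemokine CXCL10, which draws T cells, fell by 1.78 ± 0.43 (0.0187, 1 of 6 cows higher), and its call was lost without cow D's day 7 library (0.0545) or cow F's day 4 library (0.0576), where its level was 58.4 CPM against 4.63 to 17.0 CPM in the other day 4 libraries.

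Over both arms 6.27% of all genes were called higher and 4.28% lower, and no list was tested as a set against these shares. By list, 1 of 3 tested interferon genes, 1 of 9 receptors and kinases and 2 of 12 sensors and adaptors were called, all higher. Of 38 further interferon-stimulated genes 1 was higher and 1 lower, and of 17 interferon-gamma and antigen presentation genes 2 were lower, with a list median of -0.50. In the P4 arm alone RIGI (1.64 ± 0.33), TDRD7 (1.07 ± 0.25), IFNGR1 (1.09 ± 0.26), MYD88 (0.83 ± 0.24), the STAT partner NMI (0.78 ± 0.22) and the ISG15 ligase HERC5 (1.33 ± 0.39) were called higher. CXCL10 (-2.95 ± 0.63), PML (-0.73 ± 0.20) and the ubiquitin ligase TRIM56 (-0.54 ± 0.14) were called lower. Among all genes 4.64% were called higher and 4.00% lower in that arm. All 9 calls were lost without cow F's day 4 library, 8 without cow E's day 4 or cow D's day 7 library, 6 without cow E's day 7 library and 5 without cow D's day 4 library. HERC5 (adjusted p = 0.0490) also lost its call with the cow as a block (0.0530). It was lost too with no filter on low counts, with only the compared groups and with limma voom. TRIM56 lost its call with no filter on low counts and with only the compared groups. NMI lost its call with only the compared groups, and PML with no filter on low counts. In the 17-OHPC/P4 arm, after treatment and between the arms, 0 of these genes were called by edgeR.

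After treatment the further interferon-stimulated genes had the sign of the members, with 30 of 38 negative over both arms and a median of -0.36. IFNAR1 had -0.25 ± 0.16 and IFNAR2 -0.43 ± 0.24. RIGI, which had risen by day 7, had 0.27 ± 0.22, and SAMHD1 was highest of all libraries in the treated library of cow F, at 480.4 CPM.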

How the data were processed

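The deposited table gives raw counts per gene, made by the authors from paired-end poly(A) libraries sequenced on a DNBSEQ-G400, per the labels' protocols. Tools named there, per the submitters' processing notes, are STAR, featureCounts, DESeq2, cutadapt and FastQC. Build, annotation, versions and strand setting were not given in the sources used here. Low counts were mostly even (79.1% of counts from 1 to 5 over all genes), so the number of independent fragments may be below the count. The table held 0 columns of other samples and 17715 rows without a symbol. Of the 32 members, 31 matched a RefSeq symbol, which served for neighbours only.

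All 18 libraries were fitted in edgeR 4.0.16 under R 4.3.3 (filterByExpr, TMM, quasi-likelihood F test, robust), with 1 mean per group and 12 residual degrees of freedom. The Benjamini-Hochberg adjustment ran over all 19638 genes tested, with a threshold of 0.05. CPM used total counts. Changes within cows, levels relative to a gene's mean and counts of genes highest or lowest in a library used TMM-scaled log2 CPM with a prior count of 2. Standard errors were taken from the F statistic. Alternatives were RLE factors, other filters, only the compared groups, limma voom 3.58.1, DESeq2 1.42.0, the cow as a block and each library left out. Leaving out whole cows and the difference between arms in the day 4 to day 7 change were added after seeing the data. The labels give 1 letter per cow, so replicates are separate cows and pair across conditions. Deviations from group means correlated in the same cow with a median of 0.375 over 18 pairs (-0.0712 to 0.718), 12 of them over 0.1.

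Counts were simulated with 50 genes each changed 2-fold, 4-fold, 8-fold and 16-fold. For treated against untreated day 7 in the P4 arm (19241 genes) the test recovered 0, 23, 37 and 35 of them, with 2 false calls. For day 7 against day 4 over both arms (19299 genes) it recovered 11, 28, 46 and 45, with 6 false calls. The simulated libraries were drawn independently, without the correlation within cows seen in the data. Members, pathway lists, markers and role groups were chosen with earlier results of these data known. Any member could be named. Called members, the highest and lowest and the classical markers were to be named, and from the pathway lists the called genes, the receptors and IFNE, apart from some results that are not reported here. Of the pathway genes RIGI alone was given by library. UBA7, USP18, ZBP1, IFI44, IFIT3, IFIT5 and PARP9 were given by library after their values were seen.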

Additional observations from a re-analysis of the deposited data

How the results depend on the processing

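With the cow as a replicate block, the paired fit called 2 members between day 4 and day 7 over both arms and 3 in the P4 arm, as without the block, and 10 were lower at an unadjusted p after treatment. Beyond HERC5, the block changed no call named above. For day 7 against day 4 over both arms, 2 members were called, against 1 with no filter on low counts, 6 with DESeq2, where 3525 of 19524 genes tested were called, and 0 with all libraries of cow B, D or E left out. Leaving out 1 library gave 0 to 7: 0 without cow A's untreated day 7 library, 1 without the day 7 library of cow B or D or the day 4 library of cow E, and 7 without the day 7 library of cow F, where 3215 of 19638 genes were called. In the P4 arm 3 were called, against 0 with cow D, E or F left out, and 0 to 5 with 1 library left out: 0 without cow D's day 7 or cow E's day 4 library, 1 without the day 4 library of cow D or F or the day 7 library of cow E. The cause was not tested, and leaving out cows or libraries leaves fewer samples. In all other comparisons 0 members were called under every alternative run. No called gene turned its direction, but some medians did with single libraries or cows left out, as given above. The depth gave 32127 or more counts to the members together in each library, but single members had few. IFI44 had 14 counts in the treated library of cow F and IFIT2 16 in that of cow A. OAS2 had 18 in cow B's day 4 library and in the treated library of cow F.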
